A study of Homo sapiens with 7 samples.

Results

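Myelin is the layered membrane that oligodendrocytes and Schwann cells wrap around axons. The genes described here are MBP, PMP22, MAG, MAL and CNP, which encode proteins of that membrane, and SOX10, NGFR and S100B, which are used as markers of Schwann cells and their precursors. They are 8 of the 16814 RefSeq genes that code for protein and span 5 kb or more, and each was taken with its gene body on hg38 and 20 kb on either side. They were chosen from values of the same comparison, in which a 100-kb window over MBP had already been seen to carry less 5-hydroxymethylcytosine (5hmC). Values that compare the groups at these 8 genes are therefore a description, and no test or call on them is read as support.

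The cells were SH-SY5Y, a human neuroblastoma line of sympathetic character, and the study asked how lowering TDP-43, a nuclear protein that binds RNA and DNA and is the product of TARDBP, alters 5hmC. In the group shTDP43 a lentivirus expressed a hairpin that targets TDP-43 from a U6 promoter, and the cells were held as a stable line under puromycin. The group shNC received a control hairpin in the same vector. Each group had 3 libraries made by hMe-Seal, in which 5hmC is given an azide-bearing glucose and then a biotin, pulled down and sequenced, and each library came as its own list of called peaks. The labels describe the puromycin selection for the knockdown cells only and do not say whether a line is 1 clone or whether replicates were separate cultures, so the spread between libraries may be technical.

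5hmC is made from 5-methylcytosine by the TET enzymes and is often found in the bodies and enhancers of genes. MBP is known for compacting myelin by holding its cytoplasmic faces together, and its transcription unit is known for an upstream start that gives the Golli forms and for downstream starts that give the classic myelin protein. PMP22 is a tetraspan protein of peripheral myelin, in which changes of gene dose cause inherited neuropathies. SOX10 is the transcription factor that specifies Schwann cells from the neural crest and drives myelin genes such as MBP.

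The start sites are shown first, since the groups differed there at MBP. RefSeq's promoter windows for GRCh38.p14 run from 250 bases before to 50 after a start, and 9 windows were found for 5 of the 8 genes (MBP, PMP22, CNP, MAG and MAL). The windows of MBP and PMP22 are printed 5′ to 3′ on the minus strand, in lower case with every CpG, the dinucleotide in which most 5hmC lies, in capitals. The 5 windows are the outer MBP start (chr18:77132734-77133033), the inner MBP start (chr18:77017006-77017305) and the outer, middle and inner PMP22 starts (chr17:15265277-15265576, chr17:15262503-15262802 and chr17:15260771-15261070).
MBP outer: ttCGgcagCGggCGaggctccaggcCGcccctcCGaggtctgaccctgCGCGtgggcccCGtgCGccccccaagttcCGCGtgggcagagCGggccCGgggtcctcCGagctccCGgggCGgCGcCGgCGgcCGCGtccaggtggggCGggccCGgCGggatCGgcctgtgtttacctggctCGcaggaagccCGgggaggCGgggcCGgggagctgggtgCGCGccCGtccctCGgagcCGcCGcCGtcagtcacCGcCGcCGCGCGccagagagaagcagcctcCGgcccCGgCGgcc
MBP inner: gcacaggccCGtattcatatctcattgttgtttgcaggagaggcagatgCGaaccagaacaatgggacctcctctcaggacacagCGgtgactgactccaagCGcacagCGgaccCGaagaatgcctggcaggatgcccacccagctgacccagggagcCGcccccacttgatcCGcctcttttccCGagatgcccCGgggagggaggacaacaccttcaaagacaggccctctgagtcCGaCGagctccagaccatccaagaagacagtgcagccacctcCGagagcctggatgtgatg
PMP22 outer: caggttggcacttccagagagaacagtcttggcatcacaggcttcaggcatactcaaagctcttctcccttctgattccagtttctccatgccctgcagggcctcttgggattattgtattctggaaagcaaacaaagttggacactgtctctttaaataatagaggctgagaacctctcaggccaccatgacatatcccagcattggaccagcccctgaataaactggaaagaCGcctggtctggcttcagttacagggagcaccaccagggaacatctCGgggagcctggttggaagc
PMP22 middle: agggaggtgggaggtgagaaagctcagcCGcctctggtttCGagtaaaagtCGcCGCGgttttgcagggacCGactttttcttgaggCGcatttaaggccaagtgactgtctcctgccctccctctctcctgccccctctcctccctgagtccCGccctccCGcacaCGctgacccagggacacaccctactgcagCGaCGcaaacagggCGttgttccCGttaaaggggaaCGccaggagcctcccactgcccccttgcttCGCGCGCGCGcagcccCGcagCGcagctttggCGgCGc
PMP22 inner: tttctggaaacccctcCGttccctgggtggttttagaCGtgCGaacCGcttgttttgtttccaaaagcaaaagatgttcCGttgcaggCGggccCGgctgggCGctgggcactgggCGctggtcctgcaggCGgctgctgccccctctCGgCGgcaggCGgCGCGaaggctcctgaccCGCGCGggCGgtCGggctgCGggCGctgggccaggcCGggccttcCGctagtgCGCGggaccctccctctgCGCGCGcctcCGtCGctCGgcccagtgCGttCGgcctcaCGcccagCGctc

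The outer MBP window held 44 CpG, a number reached by 4.20% of the 34961 RefSeq promoter windows. Peaks covered 300, 244 and 300 of its 300 bases in shNC 1 to 3 and none of them in the 3 shTDP43 lists. The nearest peak lay 1297, 1346 and 14535 bases from the start site in shTDP43 1 to 3. Those of shTDP43 1 and 2 fall in the same merged region as the shNC peaks, chr18:77132660-77134526. A window covered in 3 of 3 shNC and 0 of 3 shTDP43 lists occurred in 0.529% of all promoter windows, and this was the only one among the 9. The inner MBP window, 115728 bases further into the gene, held 13 CpG and had no peak in any of the 6 lists.

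The outer PMP22 window held only 2 CpG and was covered over 164 bases in shNC 1 and 173 in shNC 2, and had no peak in shNC 3 or in any shTDP43 list. The middle and inner PMP22 windows held 24 and 36 CpG, and no list had a peak in either. Among all promoter windows of 30 or more CpG, 4.80 to 5.83% had a peak in an shNC list and 3.00 to 3.67% in an shTDP43 list, so the CpG-rich outer MBP window was among the few of its kind with a peak in control cells. The CNP window with 41 CpG and the windows of MAG (8 CpG) and MAL (33 CpG) had no peak in any list. A second CNP window, with 10 CpG, was covered over 84 bases in shNC 1 only.

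MBP carried fewer 5hmC peaks in shTDP43 than in shNC cells, and they covered less of the gene. Peaks covered 11.5%, 10.8% and 10.3% of the MBP gene body (chr18:76978833-77133708) in shNC 1 to 3 and 5.45%, 4.53% and 5.62% in shTDP43 1 to 3. The groups did not overlap, and the means were 10.9% ± 0.616 and 5.20% ± 0.586 (SD, n = 3 each). The number of peaks in the gene body was 25, 24 and 23 in the shNC lists and 13, 13 and 14 in the shTDP43 lists. Both the number of peaks and the covered sequence of MBP were lower in every shTDP43 list.

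On the scale of log2(percent + 1), with each library centred on its median deviation over all genes, the MBP gene body differed by -0.84 (SE 0.13, shTDP43 minus shNC). With 20 kb on either side, 11.6%, 11.1% and 10.1% of the MBP locus was covered in shNC 1 to 3 and 6.14%, 5.27% and 6.20% in shTDP43 1 to 3, a difference of -0.67 (SE 0.11). MBP ranked above 87.4 to 90.6% of the 16814 genes by body coverage in the shNC lists and above 73.9 to 77.0% in the shTDP43 lists. Among the genes tested over the locus, 361 of 11904 had a lower difference than MBP.

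The sizes of the lists did not separate the groups. Peaks numbered 117949 to 157157 in the shNC lists and 119820 to 142605 in the shTDP43 lists, and covered 80.8 to 111 Mb and 78.2 to 98.8 Mb. Chromosome 18 held 2.42 to 2.70% of the covered bases in shNC and 2.62 to 2.69% in shTDP43. Per Mb covered in its list, the MBP locus held 279, 194 and 231 covered bases in shNC 1 to 3 and 121, 131 and 135 in shTDP43 1 to 3, again without overlap. With equal numbers of peaks per list the locus difference was -0.69. The background in reads per position that fits the authors' values of fold and p did move with the groups, at 2.48 and 2.85 in shNC 1 and 3 and 2.27, 1.65 and 2.24 in shTDP43 1 to 3, with no value for shNC 2, whose pairs did not match whole reads. Its part in the MBP difference was not tested.

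**Figure D1:**
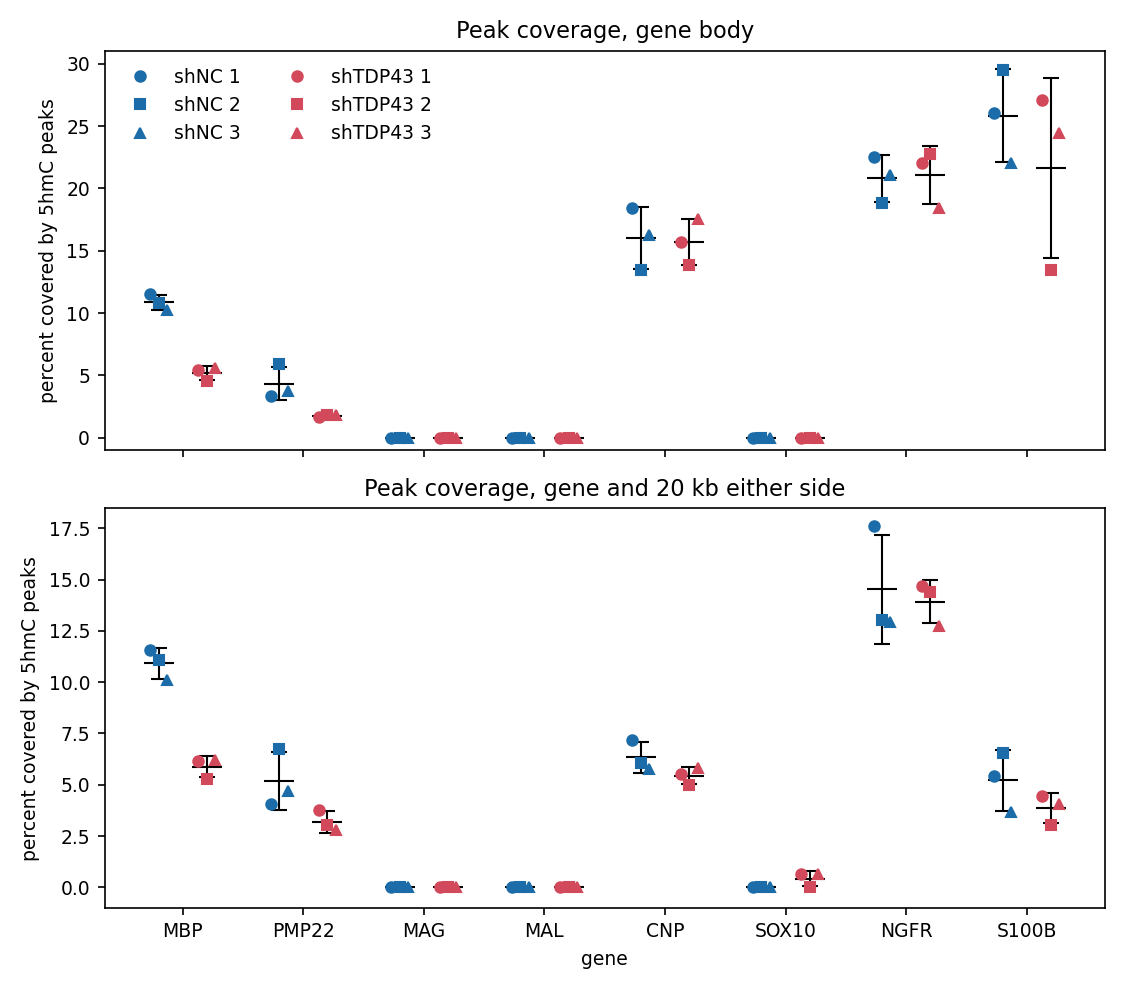
Percent of each gene body (top) and of each gene with 20 kb either side (bottom) covered by 5hmC peaks, by library. Black bars are the mean and SD of 3 libraries. MBP runs from 10.3 to 11.5% in shNC and from 4.53 to 5.62% in shTDP43 over its body, PMP22 is also separated, and MAG, MAL and SOX10 lie at 0 over their bodies.

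The lower coverage was spread unevenly along MBP, and in covered bases most of it lay between the outer and inner starts. The gene was cut into 20 bins of 10 kb, from 30 kb before the outer start to 170 kb beyond it. Coverage was lower in all 3 shTDP43 lists than in any shNC list in 9 bins, higher in none, and 3 bins had no peak. The share of such bins elsewhere was not counted. Of all 11904 loci tested, 22% were lower without overlap and 2.43% higher. Loci are longer than bins and had to reach a mean coverage of 1%, so these shares are not a background for the bins. From 20 to 30 kb the coverage was 18.1%, 18.3% and 15.4% in shNC 1 to 3 and 3.89%, 3.04% and 3.07% in shTDP43 1 to 3. From 50 to 60 kb it was 3.94%, 4.44% and 4.05% in shNC and 0 in each shTDP43 list. These bins kept little or no peak signal in the knockdown lists.

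Other stretches of MBP differed less. From 70 to 80 kb the coverage was 17.6%, 23.5% and 17.8% in shNC and 11.7%, 20.5% and 20.4% in shTDP43, so the groups overlapped. From 140 to 150 kb, near the end of the gene, it was 17.1%, 12.6% and 12.9% in shNC and 12.3%, 12.02% and 12.4% in shTDP43, again lower without overlap but by less. The part upstream of the inner start (chr18:77017056-77133708) was covered over 11.5% ± 0.503 in shNC and 5.34% ± 1.14 in shTDP43. The part from the inner start to the gene's end was covered over 8.78% ± 1.79 and 4.76% ± 1.13 (SD, n = 3 each). Both parts of the gene were lower without overlap.

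**Figure D2:**
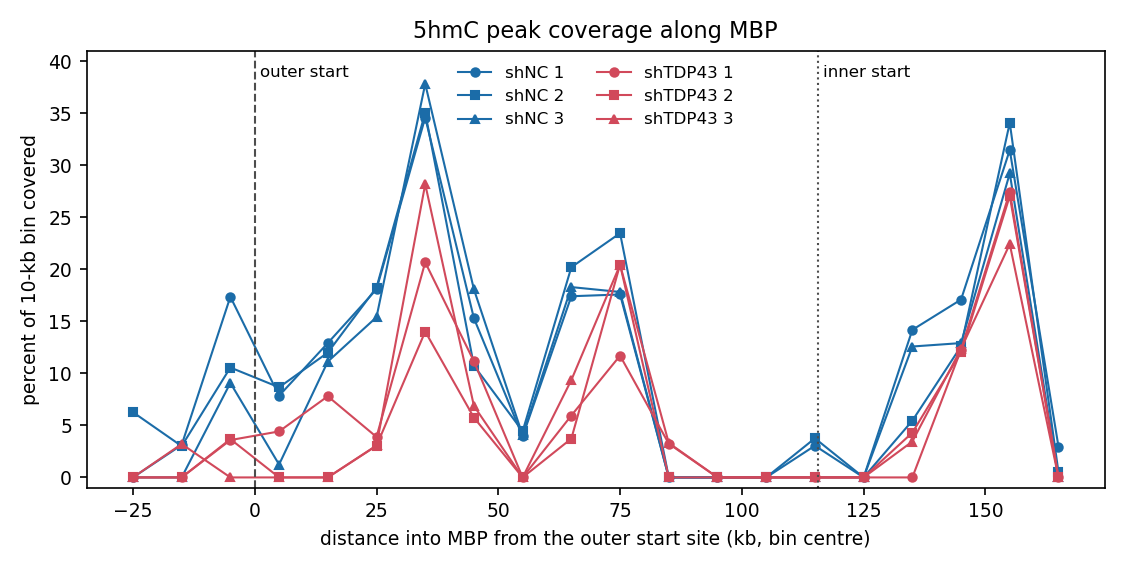
Percent of each 10-kb bin covered by 5hmC peaks along MBP, against distance from the outer start in kb, with 1 line per library. Dashed and dotted lines mark the outer and inner starts. From 20 to 30 kb the shNC lines lie at 15.4 to 18.3% and the shTDP43 lines at 3.04 to 3.89%, and from 140 to 150 kb at 12.6 to 17.1% and 12.02 to 12.4%.

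Lower coverage was also found outside the gene. The 20 kb beyond the end of the gene was covered over 17.4% ± 0.973 in shNC and 15.2% ± 0.691 in shTDP43, and the 20 kb before its first base over 4.94% ± 2.16 and 1.75% ± 0.125 (SD, n = 3 each), both lower without overlap. ZNF236, the zinc finger gene that lies next beyond the end of MBP, was covered over 4.87%, 6.78% and 6.31% in shNC 1 to 3 and 5.68%, 4.96% and 6.28% in shTDP43 1 to 3. The groups overlapped at ZNF236. In windows of 100 kb, that over the end of MBP and its far flank (chr18:76900001-77000000) was covered over 10.4% ± 0.766 in shNC and 9.37% ± 0.378 in shTDP43 (SD, n = 3 each). The sparsely covered chr18:76700001-76800000 was covered over 1.04%, 1.21% and 1.34% in shNC 1 to 3 and 0.871%, 0.572% and 0.623% in shTDP43 1 to 3. Both windows were lower without overlap, and in the window between them the groups overlapped. The share of such flanks and windows elsewhere was not counted. Lower values without overlap were common in another unit, at 22% of the 11904 gene loci tested, with 2.43% higher. Nothing particular to the surroundings of MBP is read from these values. GALR1, a galanin receptor gene on the other side, had no peak in any list.

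Joined over the 6 lists, the peaks of the MBP locus formed 39 regions. A peak from all 6 lists was present in 11 of them (28.2%), against 35.5% of all merged regions. In the 11 regions present in all lists, which hold the most even peaks by their choice, 9244, 9755 and 10105 bases were covered in shNC 1 to 3 and 8726, 7389 and 8743 in shTDP43 1 to 3. In the other 28 regions 13286, 11873 and 9564 bases were covered in shNC and 3238, 2888 and 3342 in shTDP43. The split itself places every region that a list lacks among the 28, so nothing is read from the size of the difference there.

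A region with a peak in 3 of 3 shNC and 0 of 3 shTDP43 lists is called shNC-only, and such regions made up 1.97% of all 200818 merged regions. The MBP locus had 4 of them, at chr18:77067447-77068720, chr18:77080227-77080732, chr18:77090750-77091213 and chr18:77103134-77103586. All 4 lay inside the gene, with centres 29424 to 64700 bases downstream of the outer start, and the third also overlapped LOC124904328, an uncharacterised locus. At least 4 shNC-only regions were found at 0.315% of the 16814 loci. The converse class, in all shTDP43 and no shNC lists, made up 1.06% of all regions and was absent from MBP.

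The strongest MBP peak lay at chr18:77095391-77096594 in 5 of the 6 lists. Its fold enrichment, as the authors give it, exceeded that of 97.3%, 97.3% and 93.7% of the peaks of shNC 1 to 3 and 81.5% and 83.0% of those of shTDP43 1 and 2. In shTDP43 3 the strongest peak was instead at chr18:76974132-76974940, beyond the end of the gene. The region chr18:77095391-77096594 was also called in shTDP43 3, with a fold of 7.85. That was below the 8.51 of chr18:77071690-77072747, likewise inside the gene. Both regions had a peak in all 6 lists.

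PMP22 (chr17:15229779-15265326) was also lower in the knockdown over its body. Coverage was 3.39%, 5.89% and 3.77% in shNC 1 to 3 and 1.67%, 1.82% and 1.83% in shTDP43 1 to 3, with means of 4.35% ± 1.35 and 1.77% ± 0.0894 (SD, n = 3 each). The groups did not overlap, and the shNC lists spread far more than the shTDP43 lists. The difference was -0.82 (SE 0.18) on the log2(percent + 1) scale. This rests on few peaks, 3, 5 and 3 in the shNC lists and 1 in each shTDP43 list.

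With its flanks PMP22 differed less. The locus was covered over 4.07%, 6.76% and 4.71% in shNC 1 to 3 and 3.78%, 3.02% and 2.78% in shTDP43 1 to 3, a log2 difference of -0.41 (SE 0.16). Of 10 merged regions 3 were in all lists, and 1, at chr17:15255818-15256207 inside the gene, was shNC-only. At the peaks present in all lists, 2023, 2765 and 2788 bases were covered in shNC and 2516, 2283 and 2099 in shTDP43. Regions absent from any list are left out of these sums by construction. The strongest peak of the locus in every list lay within chr17:15283601-15285105, in the flank before the gene's first base, with a fold above 87.7 to 99.9% of the peaks of its list. The 1 peak kept inside PMP22 in the knockdown lists was at chr17:15256639-15257384.

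**Figure D3:**
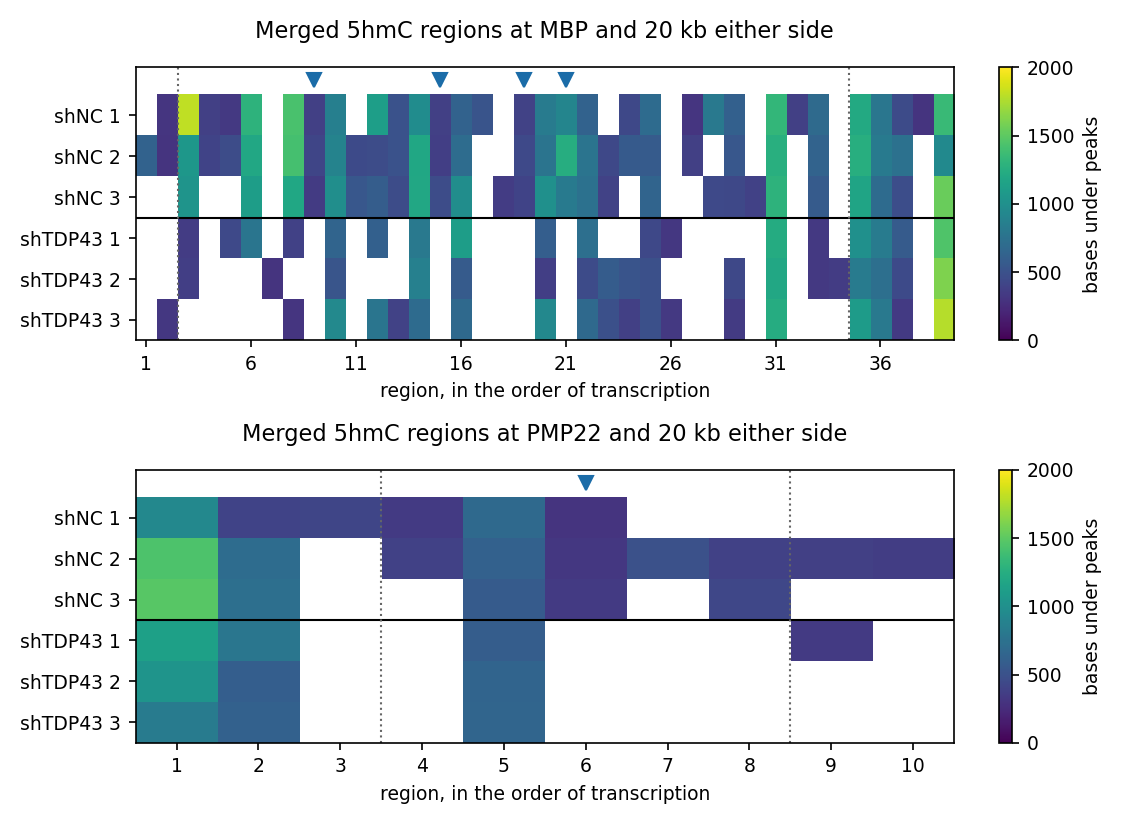
Bases under peaks in each merged region of MBP (top, 39 regions) and PMP22 (bottom, 10 regions) with 20 kb either side, by library, in the order of transcription. White means no called peak, dotted lines bound the gene body, and triangles mark the 4 and 1 regions found in all shNC and no shTDP43 lists.

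CNP encodes a cyclic nucleotide phosphodiesterase of non-compact myelin, and coverage of its body or locus did not separate the groups. The 20 kb before CNP alone was lower without overlap, at 6.63%, 6.48% and 5.765% in shNC 1 to 3 and 5.49%, 5.11% and 5.175% in shTDP43 1 to 3. ODAD4, the neighbour on that side, spans nearly all of that stretch and shares its peaks, so it is not a separate observation. Its body was covered over 7.19%, 6.67% and 6.39% in shNC 1 to 3 and 3.06%, 2.85% and 4.80% in shTDP43 1 to 3, also lower without overlap. The CNP body (chr17:41966795-41977740) was covered over 18.4%, 13.4% and 16.2% in shNC 1 to 3 and 15.7%, 13.9% and 17.6% in shTDP43 1 to 3, a log2 difference of 0.08 (SE 0.19). A single region, chr17:41972397-41973936, held the strongest CNP peak in all 6 lists, with a fold above 97.3 to 99.6% of the peaks of each list. The body means of CNP were nearly equal, and a strong site inside the gene was present in every library.

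MAG encodes an adhesion protein of the axon-facing myelin membrane and MAL a proteolipid of myelin rafts. Neither MAG (chr19:35292161-35313807) nor MAL (chr2:95025708-95053992) had a peak in its body or within 20 kb in any of the 6 lists. The nearest peak was 24995 to 172673 bases from the MAG start site and 89582 to 134226 bases from the MAL start site. By comparison, 27.6% of all genes had no peak in the body and 13.1% none within 20 kb. A peak not called is not proof that 5hmC was absent, and read depth was not available to set a limit.

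SOX10 (chr22:37972312-37984555) lies inside the span of POLR2F, a subunit gene of RNA polymerases. No list had a peak in the SOX10 body. Within 20 kb there was 1 region, chr22:37999110-37999444, with a peak in shTDP43 1 and 3 and in no other list. SOX10, MAG and MAL were below the mean coverage of 1% needed for the fit, so 5 of the 8 genes entered it.

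NGFR, the low-affinity neurotrophin receptor of Schwann cell precursors and sympathetic neurons, was well covered in both groups. Its body (chr17:49495293-49515008) was covered over 22.6%, 18.8% and 21.0% in shNC 1 to 3 and 22.1%, 22.8% and 18.4% in shTDP43 1 to 3, a log2 difference of 0.12 (SE 0.18). Of 14 merged regions at the NGFR locus 8 were in all lists. NGFR ranked above 96.2 to 98.7% of genes by body coverage in every list.

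S100B encodes a calcium-binding protein of Schwann cells and astrocytes. Its short body (chr21:46598604-46605082) was covered over 26.0%, 29.5% and 22.04% in shNC 1 to 3 and 27.1%, 13.5% and 24.5% in shTDP43 1 to 3. The groups overlapped, with shTDP43 2 the lowest, and the log2 difference was -0.19 (SE 0.20). Of its 5 merged regions 2 were in all lists. The neighbour DIP2A was lower without overlap, at 3.24%, 3.05% and 2.86% in shNC 1 to 3 and 2.43%, 1.45% and 2.57% in shTDP43 1 to 3. By body coverage in the shNC lists the order was S100B, NGFR, CNP, MBP and PMP22, and the ranges of S100B and NGFR overlapped, whereas in shTDP43 the range of S100B overlapped those of NGFR and CNP.

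Over the 8 genes, 2 of the 5 measured by the fit (MBP and PMP22) had all shTDP43 values below all shNC values over the body, where 18.3% of the 10077 genes tested did, and none had the reverse, against 3.34%. Over the locus the same 2 genes did so, against 22% of 11904 genes lower and 2.43% higher. By the fit at an adjusted p of 0.05, limma called no member over the body, where 0.506% of genes were called lower and 0.179% higher. Over the locus MBP alone was called, against 0.227% lower and 0.134% higher. At an unadjusted p below 0.05 by limma there were 2 of 5 over the body, against 1360 of all 10077 genes tested. Over the locus there were also 2 of 5, against 1953 of 11904. These counts repeat the measure by which the genes were chosen, and nothing is read from them.

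With 1 library left out the MBP locus difference was between -0.73 and -0.61, and MBP was among the called genes only without shNC 2, not without shNC 1, shNC 3 or any shTDP43 library. Without centring all differences moved by -0.10 over bodies and -0.13 over loci, and the calls among all genes went from 51 lower and 18 higher to 95 and 13 over bodies, and from 27 and 16 to 36 and 3 over loci. In the 8 loci together 5 of 76 regions (6.58%) were shNC-only and none shTDP43-only, and 27 (35.5%) were in all lists, as were 35.5% of all regions. At least 1 shNC-only region was present at 2 of the 8 loci and at 17.4% of all loci.

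**Figure D4:**
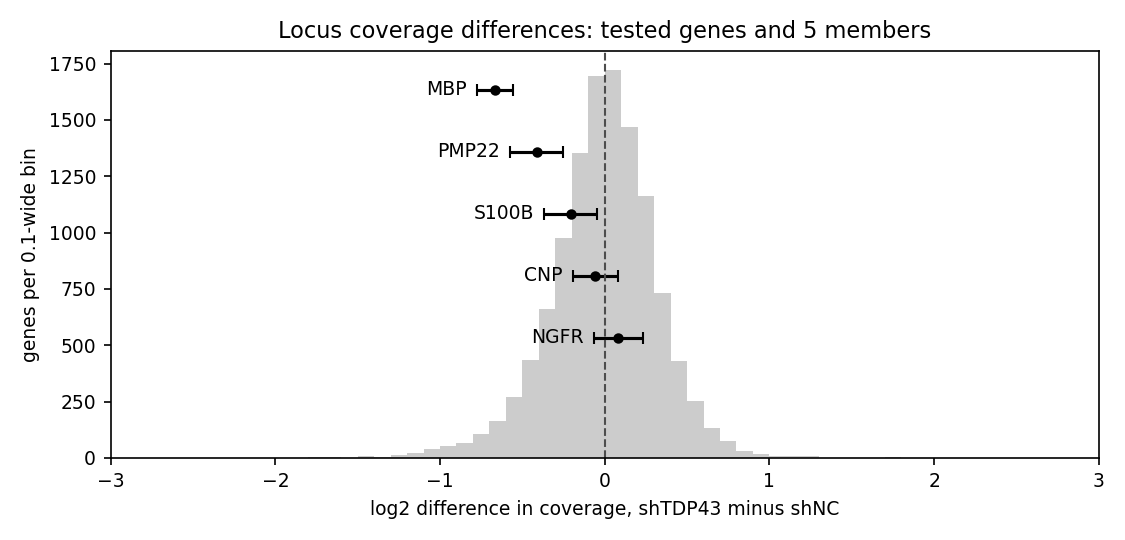
Differences in locus coverage, shTDP43 minus shNC, on the log2(percent + 1) scale after centring. Grey bars count the 11904 tested genes per bin, and points with bars are members with their SE, drawn at arbitrary heights. MBP (-0.67) and PMP22 (-0.41) lie left of S100B (-0.21), CNP (-0.06) and NGFR (0.08).

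The genes with the pattern most like MBP were found by the distance between centred log2 locus coverage over the 6 libraries. The nearest 5 were ARF1, CTSZ, ACSF3, AHNAK2 and PML, at distances of 0.11 to 0.15. CTSZ, a lysosomal protease gene on chromosome 20, was covered over 10.8% ± 0.879 in shNC and 5.98% ± 0.301 in shTDP43 (SD, n = 3 each). ACSF3, a mitochondrial acyl-CoA synthetase gene on chromosome 16, was covered over 10.4% ± 0.908 and 5.81% ± 0.234. None of the 5 is on chromosome 18 or in the lists of myelin and glial genes.

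The other genes of the myelin and glial programme were counted in the same way. Of 95 other genes in 7 lists, 87 were measured, 66 had a peak and 61 were tested over the body. By limma none rose and 1 fell, where 0.179% and 0.506% of all genes tested did. At an unadjusted p below 0.05 there were 15 of 61, against 1360 of all 10077 genes tested. These shares over all genes also stand beside the body counts of each list below. Of the 61 differences 33 were positive and 28 negative, with a median of 0.03, against a median of 0.02 over all genes tested. The 1 gene that fell was DHH, which encodes Desert hedgehog, a signal that Schwann cells send to the nerve sheath.

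DHH was covered over 6.57%, 3.94% and 4.01% in shNC 1 to 3 and had no peak in any shTDP43 list (limma adjusted p = 0.0208). All of this was 1 region, chr12:49090322-49090879, of 558 bases. The call held under 6 of 15 alternatives, was lost without each library in turn except shNC 2 (adjusted p from 0.0515 to 0.134), and was lost with equal numbers of peaks (0.362). It was also lost with peaks of −log10 q of at least 5 (limma adjusted p = 0.413), where the log2 difference was -1.62. The difference was -2.42 in the main fit and -2.62 to -2.17 with 1 library left out. Since every shTDP43 list is at 0, its size depends on the pseudocount (-4.19 with 0.25 and -1.07 with 4).

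Among other myelin membrane proteins, none of 11 tested passed by limma (3 at an unadjusted p below 0.05). CLDN11, a myelin tight junction protein, was covered over 9.55% ± 0.584 in shNC and 5.61% ± 0.717 in shTDP43, and CD9, a tetraspanin, over 17.3% ± 1.59 and 11.6% ± 1.95 (SD, n = 3 each, limma adjusted p = 0.285 and 0.257).

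Of 6 tested enzymes and transporters of myelin lipid none passed by limma (2 at an unadjusted p below 0.05). ABCA2, a lipid transporter, was covered over 7.79% ± 1.16 in shNC and 4.07% ± 2.29 in shTDP43. GAL3ST1, which makes sulfatide, was covered over 12.8% ± 2.14 and 7.56% ± 0.484. CERS2, a ceramide synthase of very long chains, was covered over 16.5% ± 5.37 and 20.6% ± 1.67 (SD, n = 3 each). The list thus held values on both sides.

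Of the glial transcription factors 14 of 20 were measured, and none of 8 tested passed over the body by limma (3 at an unadjusted p below 0.05), with 7 differences positive. MYRF, the activator of myelin genes in oligodendrocytes, was covered over 11.8% ± 1.38 in shNC and 14.5% ± 2.2 in shTDP43. TEAD1 was covered over 20.9% ± 2.81 and 23.6% ± 1.80, and NAB1, a corepressor of EGR factors, over 4.39% ± 1.81 and 4.76% ± 0.360 (SD, n = 3 each).

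Over the locus 1 of 9 tested factors was called higher by limma and 0 lower, where 0.134% and 0.227% of all 11904 loci were. At an unadjusted p below 0.05 by limma there were 4 of 9, against 1953 of all 11904. The factor called was SOX9, which acts in neural crest and glial specification. The SOX9 locus was covered over 6.87%, 6.84% and 6.18% in shNC 1 to 3 and 12.4%, 9.61% and 10.8% in shTDP43 1 to 3, which is 0.77 higher on the log2 scale (SE 0.11, adjusted p = 0.0297 by limma). The added coverage was in the flanks, since the SOX9 body was covered over 10.1% ± 5.76 in shNC and 8.67% ± 0.362 in shTDP43 (SD, n = 3 each). The call held under 7 of 17 alternatives and was lost without shNC 3 (0.198) and without shTDP43 1, 2 or 3 (0.0965 to 0.146).

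In the list of glial receptors and adhesion proteins, 1 of 14 tested passed, DHH. ITGA6, a laminin receptor subunit, was covered over 3.39% ± 1.04 in shNC and 1.19% ± 0.544 in shTDP43, and PLEKHB1 over 3.19% ± 1.42 and 1.31% ± 1.13 (SD, n = 3 each). At the junction of axon and myelin none of 10 tested passed by limma (2 at an unadjusted p below 0.05). CADM4, a Schwann cell adhesion protein, was covered over 3.52% ± 0.773 and 1.94% ± 1.81, its axonal partner CADM3 over 1.64% ± 0.721 and 0.698% ± 0.605, and CNTN1, an axonal adhesion protein of paranodes, over 3.95% ± 1.98 and 5.67% ± 0.922.

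Of 9 tested partners of NGFR and MAG signalling none passed by limma (0 at an unadjusted p below 0.05). RTN4R, a receptor that binds MAG and Nogo, was covered over 22.9% ± 2.06 in shNC and 24.6% ± 2.35 in shTDP43. IRAK1, a signalling kinase, was covered over 4.36% ± 1.02 and 2.47% ± 2.19, and SORT1, a co-receptor of proneurotrophins, over 2.35% ± 0.544 and 1.77% ± 0.116 (SD, n = 3 each). Of the paralogs of PMP22 and MAL none of 3 tested passed by limma (1 at an unadjusted p below 0.05). MALL was covered over 4.91% ± 0.130 in shNC and 0.922% ± 0.821 in shTDP43 (limma adjusted p = 0.116), EMP3 over 9.51% ± 0.181 and 6.38% ± 5.59, and EMP2 over 6.94% ± 0.809 and 6.91% ± 0.435.

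Markers of the cells themselves were read in the same way. Of 7 measured noradrenergic neuroblastoma markers 6 had a peak, with a median body coverage of 19.4% in shNC and 20.6% in shTDP43. None of 6 tested passed by limma (0 at an unadjusted p below 0.05), and all 6 differences were positive, against 5260 of all 10077. Over the locus none of 7 passed by limma, 4 had an unadjusted p below 0.05 (1953 of all 11904) and 6 were positive (6045 of all 11904). The largest body differences on the log2 scale were in ISL1 (7.06% ± 7.56 and 12.7% ± 0.639), DBH (36.8% ± 5.74 and 41.3% ± 0.953) and SLC18A1 (14.8% ± 3.18 and 16.5% ± 2.14). Of 7 measured mesenchymal markers 6 had a peak, with body medians of 3.39% and 1.89%, and none of 5 tested passed by limma (0 at an unadjusted p below 0.05). Of the 5 body differences 4 were positive and 1 negative, with a median of 0.27 on the log2 scale. The body medians of the groups therefore do not give the direction of most of these genes. Over the locus none of 5 passed by limma, 2 had an unadjusted p below 0.05, and 2 differences were positive and 3 negative. Among the mesenchymal markers the VIM body was covered over 7.80% ± 6.33 and 1.73% ± 1.72, FN1 over 3.39% ± 1.65 and 5.08% ± 0.596, and COL1A1 over 6.15% ± 1.52 and 7.70% ± 1.23 (SD, n = 3 each). Peak lists hold no expression, so neither the fall of TARDBP nor the activity of any gene named here could be checked.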

How the data were processed

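Data were 6 narrowPeak lists, 3 shNC and 3 shTDP43. The genome build (hg38) and the tools MACS2 2.2.6, Bowtie2 2.4.4 and SAMtools are named, without their roles, per the submitters' processing notes. The score, fold enrichment, −log10 p-value and −log10 q-value of each peak are the authors' deposited values, used only to describe, rank or filter peaks within a list and to read an implied background. Whether the input library served as control is not given in the sources used here, and it was not analysed here. Depth is unknown, so no counting interval was given.

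Peaks on chromosomes 1 to 22 and X were set against RefSeq genes (GRCh38.p14, no exons). Coverage was the percent of a gene, or of a gene with 20 kb either side, under peaks. Where the mean reached 1%, genes were compared as log2(percent + 1), each library centred on its median deviation, with limma 3.58.1 (R 4.3.3, variance trend). Calls were made at a Benjamini-Hochberg adjusted p of 0.05. Overlapping or adjoining peaks were joined across lists. The implied background is the Poisson mean that reproduced all 40 of the most frequent fold and p pairs within 0.002 (3 of 40 in shNC 2, so no value). Python 3.11.15, numpy 2.4.6 and pandas 2.3.3 did the rest.

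The genes and lists were chosen with earlier results of these data known. Named were all 8 genes, from each other list the called genes and the 3 largest differences, genes overlapping group-specific regions, and the 5 genes nearest to MBP in pattern. 1 gene that this rule names is not reported here. ZNF236, GALR1, POLR2F, TEKT3, DIP2A, DNAJC7 and ODAD4 were added as neighbours. By body coverage ODAD4 and DIP2A were lower in shTDP43 without overlap, as were 18.3% of all gene bodies tested. The groups overlapped at ZNF236, POLR2F, TEKT3 and DNAJC7, and GALR1 had no peak. Alternatives covered pseudocount, filter, centring, peak threshold, flank, replicate block and each library left out. Those for genes of the other lists were chosen after seeing the data.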

Additional observations from a re-analysis of the deposited data

How the results depend on the processing

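The MBP difference was negative under all 15 body and 17 locus alternatives tried. As a description, over the body MBP was also among the called genes without centring (-0.94), with quantile normalization (-0.82) and without shNC 2, and ranged from -0.94 to -0.75 with 1 library left out. Over the locus it was among the called genes under 7 of 17 alternatives, and was not with a pseudocount of 0.25 (-0.72), no filter (-0.67), the replicate block (-0.67), peaks per 10 kb (-0.44) or 10 kb either side (-0.71), with -0.73 to -0.61 over the libraries left out. The PMP22 body difference was negative under all 15, from -1.03 to -0.46. It was -0.47 with peaks of −log10 q of at least 5 and -0.53 with equal numbers of peaks, against -0.82 in the main fit. PMP22 was among the called genes under 1 of the 15, as peaks per 10 kb (-0.90).

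Calls over all gene bodies were 69, and 108 without centring, 117 with −log10 q of at least 5, 122 as peaks per 10 kb and 13 to 103 with 1 library left out, the fewest without shNC 3. Over loci they were 43, and 8 and 65 with pseudocounts of 0.25 and 4, 96 with quantile normalization, 95 with the stricter peaks, 83 with equal numbers of peaks, 2 as peaks per 10 kb, 4 and 79 with 10 and 50 kb either side, and 0 to 405 with 1 library left out. The 405 were without shNC 2. The counts were 25 without shNC 1, 1 and 2 without shTDP43 2 and 3, and 0 without shNC 3 or without shTDP43 1, where 1285 and 1422 genes had an unadjusted p below 0.05 by limma. With the replicate number as a block no gene was called over bodies or loci (1052 and 1556 at an unadjusted p below 0.05). Deviations of same-numbered libraries from their group means correlated at -0.13, -0.08 and -0.01 over bodies and -0.25, -0.15 and -0.02 over loci. The highest correlation was between shNC 2 and shTDP43 1, the longest lists of their groups, at 0.16 over bodies and 0.28 over loci. Deviations from a mean of 3 libraries are not independent, so these values cannot decide whether the numbers pair the libraries. The cause of the changes in the counts was not tested.

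Regions found in all shNC and no shTDP43 lists at the 8 genes numbered 5, and 8 with the stricter peaks and 4 to 9 under the other alternatives, 5 to 9 with 1 library left out (8 without shNC 1, 9 without shNC 3). The converse class numbered 0, and 0 to 2 with 1 library left out (2 without shTDP43 2). With a library left out the rule asks for fewer lists, so both counts tend to rise and do not measure stability.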
